A study of Mus musculus with 8 samples.

Results

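The C/EBP transcription factors and a set of fat-forming genes were followed across 4 genotypes of mouse embryonic fibroblasts, which are cultured directly from embryos and are not an established line. The set holds 10 genes chosen by name: Cebpa, Cebpb, Cebpd, Cebpg, Cebpz, Pparg, Fabp4, Lpl, Cd36 and Adipoq. Every probe annotated to them was taken, 15 in all. Of the 10 genes, 9 had a probe and 5 had a probe that could be tested, against 19057 named genes with a probe on the array and 8655 with a testable one. Cebpz had no probe under that name and was not analysed here.

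There were 2 arrays of each genotype: wild type (WT), Ing1-/-, Gadd45a-/- and DKO, which lacks both genes. Per the labels, all cells came from male C57BL/6 embryos at E15.5 and were collected as confluent cultures at passage 3, with no fat-inducing treatment named. Gadd45a encodes a small stress-induced protein and Ing1 a chromatin-binding protein of the inhibitor of growth family. The design text speaks of duplicates of each fibroblast line and names no second line per genotype, so differences between genotypes and between lines cannot be told apart. The p-values cover the spread between duplicates only, and this may be technical.

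RNA was read on a 1-colour bead array. Levels are log2 normalized intensities, and levels of different probes are not comparable. A probe counted as above background on an array when its detection p, the proportion of negative control beads that reach its brightness, was under 0.01. It was tested when this held on both arrays of at least 1 genotype, as for 14867 of 45281 probes. Differences were called at a limma adjusted p (Benjamini-Hochberg over those probes) under 0.05. On single arrays 14277 to 14778 probes passed that limit. Replicate arrays correlated with r from 0.9876 in WT to 0.9937 in DKO, across probes that are not independent. Both Gadd45a probes were brighter on the arrays labelled Gadd45a-/- and DKO than in WT (first probe, log2 difference 1.00 ± 0.12, SE, adjusted p = 0.011, and 0.92 ± 0.12, adjusted p = 0.0071). The single Ing1 probe was above background on no array. Whether these probes lie inside the deleted parts was not tested. They therefore check no label, and directions below hold for arrays as labelled.

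C/EBP factors are basic leucine zipper proteins that bind DNA as dimers. In cultured mouse preadipocytes, C/EBPβ and C/EBPδ act early after a fat-inducing stimulus and help to switch on Pparg and Cebpa. PPARγ, a nuclear receptor that pairs with RXR, and C/EBPα then maintain each other and activate the genes of the fat cell, among them Fabp4, Lpl, Cd36 and Adipoq. Fibroblasts from mouse embryos can take this route when given a differentiation cocktail.

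Early factors, Pparg and Lpl were detected in all 4 genotypes, and the other fat-cell genes and Cebpa were not. Cebpb, Cebpd, Cebpg and Lpl were above background on all 8 arrays at 1 probe each, and none of them passed the test in any comparison. Cebpa, Fabp4, Cd36 and Adipoq, each read by 1 probe, were above background on no array. Pparg was the member that was called: at 1 of its 3 probes it was 1.9-fold higher in DKO than in WT and 2.25-fold higher than in Ing1-/-. Of the 5 tested members 1 was called in DKO against WT, where 3.80% of all tested probes were called, and 1 in DKO against Ing1-/-, where 1.11% were. None of the 5 was called by limma in Gadd45a-/- against WT (1.33% of all tested probes), Ing1-/- against WT (0.417%), DKO against Gadd45a-/- (0.390%) or the interaction (0.148%), with 2, 1, 1 and 1 at an unadjusted p under 0.05. The interaction is the difference of DKO from WT beyond the sum of both single-knockout differences.

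**Figure D1:**
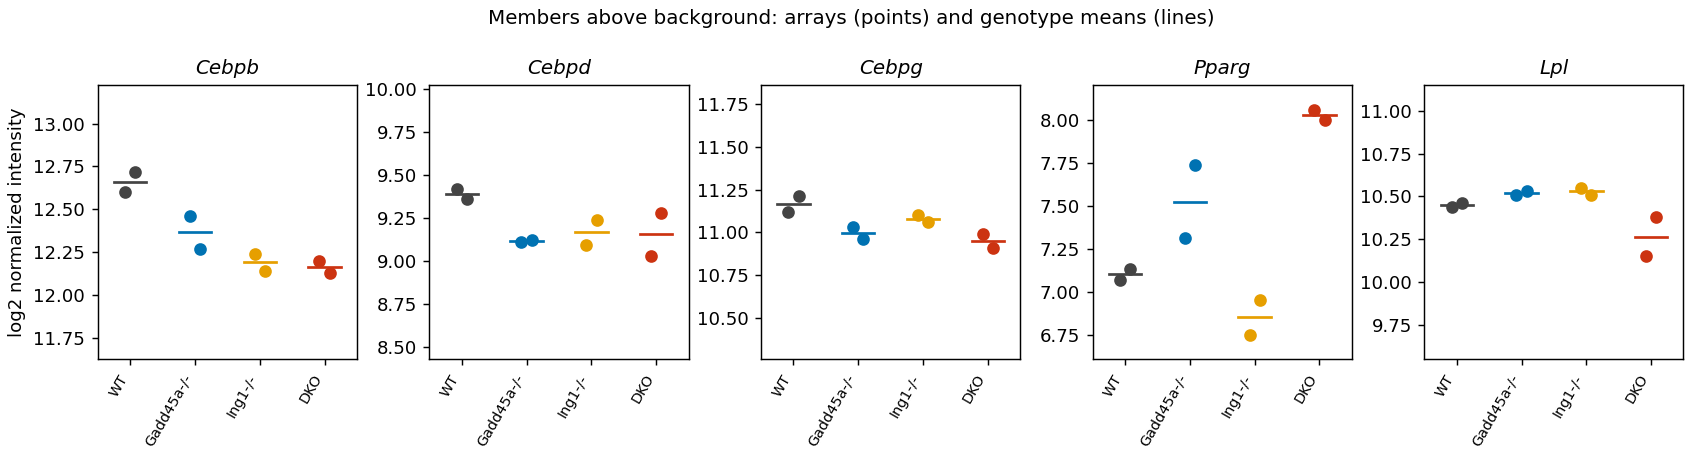
Log2 normalized intensity (vertical axis, a separate range for each gene) of the 5 tested members by genotype (horizontal axis). Points are arrays and lines are genotype means. Both DKO arrays lie highest for Pparg, at 8.06 and 8.00, and both WT arrays lie highest for Cebpb, at 12.60 and 12.72.

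Cebpb encodes C/EBPβ, one of the early activators of the fat programme. Its probe read 12.60 and 12.72 in WT, 12.46 and 12.27 in arrays labelled Gadd45a-/-, 12.24 and 12.14 in Ing1-/-, and 12.20 and 12.13 in DKO (log2 normalized intensity). Both WT arrays lay above all 6 others, and DKO and Ing1-/- overlapped. The log2 difference from WT was -0.30 ± 0.12 in Gadd45a-/- (SE, limma adjusted p = 0.37), -0.47 ± 0.12 in Ing1-/- (adjusted p = 0.20) and -0.50 ± 0.12 in DKO (adjusted p = 0.073). None of these passed the threshold, and the DKO estimate has a 95% interval from -0.78 to -0.22 before adjustment for many probes. Among 11 other settings with both arrays of each compared genotype, the DKO difference was called in 3, and the adjusted p reached 0.173 elsewhere. With 1 array left out the difference ran from -0.56 to -0.44. The calls came at -0.49 with normexp at an offset of 50 (adjusted p = 0.0299) and -0.49 with no background correction (0.0153). With a trended, robust variance prior it was called at -0.50 (0.00525). The last of these also called the Ing1-/- difference (-0.47, adjusted p = 0.0311). DKO and Ing1-/- differed by -0.02 (95% interval from -0.30 to 0.26).

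Cebpd encodes C/EBPδ, which acts beside C/EBPβ at the start of fat formation. Its brighter probe read 9.42 and 9.36 in WT, 9.11 and 9.12 in Gadd45a-/-, 9.09 and 9.24 in Ing1-/-, and 9.03 and 9.28 in DKO. The WT arrays were again the highest, and the other 3 genotypes overlapped one another. The log2 differences from WT were -0.28, -0.23 and -0.24 in the order above (SE 0.13), with limma adjusted p-values of 0.44, 0.59 and 0.43. The other Cebpd probe was above background on no array.

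Cebpg encodes C/EBPγ, a short family member without a strong activation domain that pairs with other C/EBP and ATF proteins. Its brightest probe read 11.12 and 11.21 in WT, 11.03 and 10.96 in Gadd45a-/-, 11.10 and 11.06 in Ing1-/-, and 10.99 and 10.91 in DKO. The WT values lay just above all others. The log2 differences from WT were -0.17, -0.08 and -0.22 (SE 0.11, limma adjusted p = 0.61, 0.85 and 0.40). Of its 2 other probes, 1 was above background on a single array, Ing1-/- replicate 2 (detection p 0.004), and 1 on none.

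Pparg encodes the nuclear receptor that is required for fat formation. Its tested probe read 7.07 and 7.13 in WT, 7.31 and 7.74 in Gadd45a-/-, 6.75 and 6.95 in Ing1-/-, and 8.06 and 8.00 in DKO. The 4 genotypes did not overlap: Ing1-/- was lowest, then WT, then Gadd45a-/-, then DKO. The neighbouring steps of that order did not pass the test. Ing1-/- differed from WT by -0.25 ± 0.16 (limma adjusted p = 0.65), Gadd45a-/- from WT by 0.42 ± 0.16 (adjusted p = 0.33), and DKO from Gadd45a-/- by 0.50 ± 0.16 (adjusted p = 0.34).

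Pparg was higher in DKO than in WT by 0.92 ± 0.16 on the log2 scale (95% interval 0.55 to 1.30, limma adjusted p = 0.021), a 1.9-fold change with an interval from 1.47 to 2.45. Against Ing1-/- it was higher in DKO by 1.17 ± 0.16 (95% interval 0.80 to 1.54, limma adjusted p = 0.020), or 2.25-fold with an interval from 1.74 to 2.91. The difference beyond the sum of the single knockouts was 0.75 ± 0.23 and was not called (limma adjusted p = 0.39, unadjusted p = 0.011). The call against WT was lost without WT replicate 1 (adjusted p = 0.0917), WT replicate 2 (0.0559), DKO replicate 1 (0.142) or DKO replicate 2 (0.124), with a log2 difference between 0.89 and 0.96. The call against Ing1-/- was lost without Ing1-/- replicate 1 (0.141), Ing1-/- replicate 2 (0.112), DKO replicate 1 (0.172) or DKO replicate 2 (0.144), with 1.07 to 1.28. With median scaling in place of quantile normalization Pparg was 0.73 higher in DKO than in WT (adjusted p = 0.056), and with all probes on the array tested 0.92 higher (0.0583). With all probes tested the call against Ing1-/- was lost as well (1.17, adjusted p = 0.0586). Among 11 other settings with both arrays of each compared genotype, the difference from WT ran from 0.59 to 0.98 and was called in 9. That from Ing1-/- ran from 0.72 to 1.25 and was called in 10. The size thus depended on the processing, at a probe whose raw intensity ran from 182.5 to 359.

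The other 2 Pparg probes were above background on no array. One read 4.96 and 4.74 in WT and 5.17 and 4.79 in DKO, and the other 4.58 and 4.79 in WT and 4.74 and 4.71 in DKO. The rise therefore rests on 1 probe. Which Pparg transcript each probe reads was not analysed here. Pparg lies on chromosome 6, as does Gadd45a, 48.3 Mb away in the RefSeq annotation of GRCm38.p6.

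**Figure D2:**
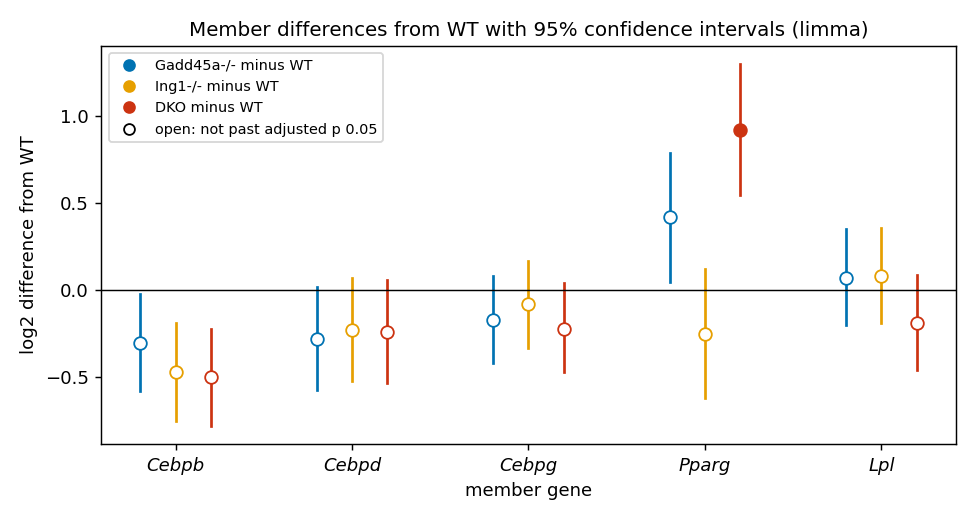
Log2 difference from WT (vertical axis) of the 5 tested members (horizontal axis) for each mutant genotype, with 95% intervals of the limma fit as bars. A filled point passed an adjusted p of 0.05, which is the DKO difference of Pparg, 0.92.

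Pparg has several starts, and the promoter of the fat-cell form PPARγ2 is a known target of C/EBP factors. The 250 bases before each of 3 Pparg starts (RefSeq, GRCm38.p6, plus strand) are shown because Pparg was the member that changed and because 1 of the starts differs from the others in the C/EBP letters it holds. Capitals mark matches to the C/EBP motif TTGCNNAA on either strand.
Pparg start 1, chr6:115360894-115361143: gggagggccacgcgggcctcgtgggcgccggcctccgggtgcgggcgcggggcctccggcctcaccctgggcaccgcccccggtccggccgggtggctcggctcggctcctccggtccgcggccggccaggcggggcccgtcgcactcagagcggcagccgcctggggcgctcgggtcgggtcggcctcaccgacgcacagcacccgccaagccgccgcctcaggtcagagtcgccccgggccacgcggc
Pparg start 2, chr6:115362099-115362348: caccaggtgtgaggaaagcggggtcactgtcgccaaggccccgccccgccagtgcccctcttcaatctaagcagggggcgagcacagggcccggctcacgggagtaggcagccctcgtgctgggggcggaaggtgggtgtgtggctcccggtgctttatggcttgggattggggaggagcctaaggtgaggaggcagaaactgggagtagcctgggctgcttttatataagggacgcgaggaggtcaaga
Pparg start 3, chr6:115421816-115422065: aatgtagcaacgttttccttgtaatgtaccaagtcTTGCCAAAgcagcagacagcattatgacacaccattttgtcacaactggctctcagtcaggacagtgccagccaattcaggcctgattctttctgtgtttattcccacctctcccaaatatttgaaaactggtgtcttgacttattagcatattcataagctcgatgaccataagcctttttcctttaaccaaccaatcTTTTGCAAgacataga

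Start 3 held 2 matches, TTGCCAAA at -215 to -208 and TTTTGCAA at -16 to -9, counted from the start with -1 as the last base before it. Starts 1 and 2 held none. Of all 32851 mouse promoters of the same length, 3142 (9.56%) held at least 1 match. Promoter sequences were matched for 6 of the 10 genes, 8 sequences in all, and no entry was used for Cebpd, Cebpz, Fabp4 and Lpl. Besides Pparg start 3, none of the 8 held the C/EBP letters, and no match says only that these letters are not in that window. The GATA motif GATAA, on either strand, was in 22.6% of all promoters and, among the 8, in that of Adipoq alone. The full direct repeat bound by PPAR and RXR dimers, allowing no mismatch, was in 0.0335% of all promoters and in none of the 8. The CCAAT box, CCAAT on either strand, was in 33.8% of all promoters and was found before the starts of Cebpg, Cd36, Adipoq and starts 2 and 3 of Pparg. Motifs were searched separately, and at Pparg start 3 a CCAAT box at -22 to -18 ends just before the second C/EBP match. A match is a description of letters and not of binding.

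Of the fat-cell targets of PPARγ and C/EBPα in the set, Adipoq, Fabp4 and Cd36 stayed below the detection limit also in DKO. Adipoq, which encodes the hormone adiponectin, had a probe that read 4.78 and 4.71 in WT, 4.79 and 4.86 in Gadd45a-/-, 4.66 and 4.89 in Ing1-/-, and 5.14 and 5.11 in DKO. Both DKO values were the highest of the 8, but their detection p was no lower than 0.112. Fitted with all probes on the array, the difference was 0.38 (limma adjusted p = 0.334). Fabp4, the fatty acid carrier of fat cells, read between 4.50 and 4.63, with a lowest detection p of 0.678. Cd36, a fatty acid receptor, read 4.57 and 4.56 in WT and 4.70 and 4.85 in DKO, with a lowest detection p of 0.299. Cebpa read 5.06 and 4.95 in WT, 4.88 and 4.65 in Gadd45a-/-, 5.13 and 5.20 in Ing1-/-, and 4.90 and 4.98 in DKO, with a lowest detection p of 0.092. These genes were not well above background, which is not a measurement of absence.

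Over the 10 member probes that were not tested, 1 of 80 values had a detection p under 0.01. Raw intensities of these probes ran from 95.21 to 184.9. In a fit of all probes none of the 10 was called by limma in any of the 6 comparisons, with at most 1 of them at an unadjusted p under 0.05 in each.

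**Figure D3:**
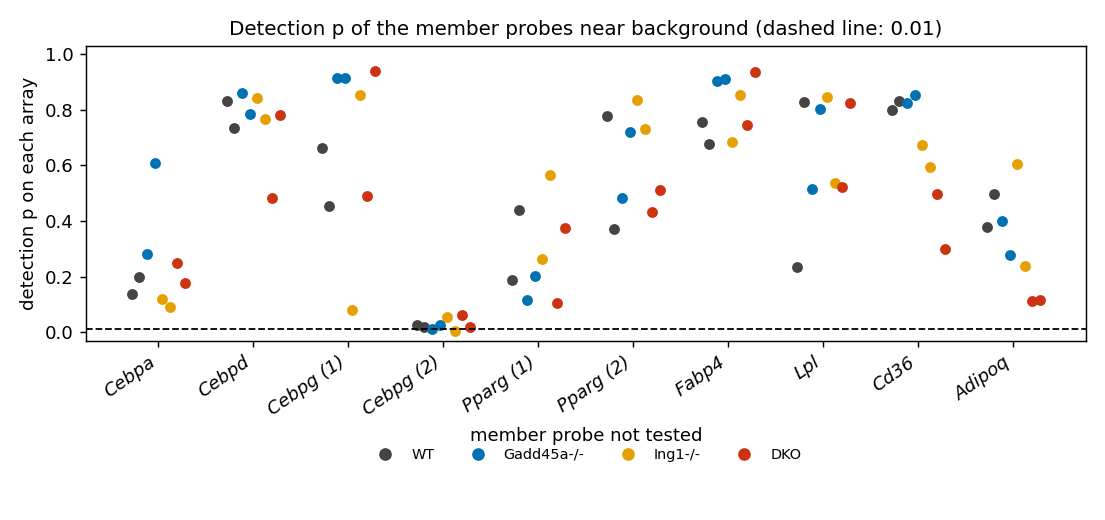
Detection p on each array (vertical axis) of the 10 member probes that were not tested (horizontal axis). Points are arrays coloured by genotype, numbers in parentheses tell apart probes of 1 gene, and the dashed line is 0.01. Only 1 of the 80 points, an Ing1-/- array at a Cebpg probe (0.004), lies under the line.

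Lpl encodes lipoprotein lipase, which frees fatty acids from circulating lipoproteins and is also made outside fat. Its tested probe read 10.44 and 10.46 in WT, 10.51 and 10.53 in Gadd45a-/-, 10.55 and 10.51 in Ing1-/-, and 10.15 and 10.38 in DKO. Both DKO arrays lay below all 6 others. No difference passed the test. DKO differed from WT by -0.19 ± 0.12 (limma adjusted p = 0.53), from Gadd45a-/- by -0.26 ± 0.12 (0.52) and from Ing1-/- by -0.27 ± 0.12 (0.43), and the single knockouts differed from WT by 0.07 and 0.08. With median scaling these last 2 turned to -0.033 and -0.11, also without a call. The other Lpl probe was above background on no array. The 95% interval of the DKO difference from WT ran from -0.46 to 0.09, so DKO and WT are not shown to be alike.

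Genes whose values over the 8 arrays lay closest to those of Pparg, each centred on its own mean, were Ahrr, Id2 and Ktn1, among 8654 other tested genes. Likeness was the root mean square difference, which was 0.149 for Ahrr, 0.163 for Id2 and 0.164 for Ktn1 in log2 units. Ahrr, the repressor of the aryl hydrocarbon receptor, read 5.70 and 5.93 in WT and 6.79 and 6.89 in DKO, and was above background on 5 of 8 arrays. Ktn1, which encodes the membrane protein kinectin, read 5.85 and 5.77 in WT and 6.28 and 6.42 in DKO. It was above background on 4 arrays, those of Gadd45a-/- and DKO, and on none of WT or Ing1-/-. Of these genes Id2 also stands in a list below.

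Around the members, lists of related genes were read at the brightest tested probe of each gene. The lists were chosen with earlier results of these data known, so their counts beside the share of all genes are a description and not a test. In DKO against WT 2.22% of all 8655 genes were higher and 2.20% lower, and the median log2 difference over all genes was near 0. The list of regulators known to restrain fat formation, in which Id2 also has a described fat-promoting role, had the most calls in DKO among the 6 lists. Of 21 such genes 19 had a probe and 16 were tested, of which 5 were higher and none lower in DKO, with a median log2 difference of 0.24 (0.072 with median scaling). Without WT replicate 1, DKO replicate 1 or DKO replicate 2 the count was 1, without WT replicate 2 or either Ing1-/- array it was 3, and with all probes tested or only the 2 genotypes fitted it was 2.

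Gata2 and Gata3 encode zinc finger factors that hold mouse preadipocytes back from becoming fat cells. Gata2 read 7.04 and 7.09 in WT, 7.91 and 7.70 in Gadd45a-/-, 7.17 and 7.18 in Ing1-/-, and 8.31 and 8.38 in DKO. WT and Ing1-/- were low, Gadd45a-/- intermediate and DKO highest, with no overlap. Gata2 was higher in DKO than in WT by 1.28 ± 0.12 (limma adjusted p = 0.0016), and this call was kept in all 8 fits without 1 array. It was also called in Gadd45a-/- (0.74 ± 0.12, adjusted p = 0.03), but in none of those 8 fits (adjusted p from 0.0628 to 0.161). The replicate block also ended that call (0.0516). Against Ing1-/-, Gata2 was higher in DKO by 1.17 ± 0.12 (adjusted p = 0.008).

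Gata3 read 6.18 and 5.96 in WT, 7.28 and 6.74 in Gadd45a-/-, 5.91 and 5.85 in Ing1-/-, and 6.95 and 7.44 in DKO. Gadd45a-/- and DKO overlapped, and both lay above the other genotypes, and 7 of the 8 arrays were above background. Gata3 was higher in DKO than in WT by 1.13 ± 0.22 (limma adjusted p = 0.034), a call kept in 2 of the 8 fits without 1 array, those without a Gadd45a-/- array, and lost in the rest (adjusted p up to 0.201). It was also lost with the replicate block (0.0501).

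Foxc2, a forkhead factor that counters white fat formation in mice, read 7.53 and 7.98 in WT, 8.12 and 8.26 in Gadd45a-/-, 7.68 and 8.03 in Ing1-/-, and 8.85 and 9.02 in DKO. The DKO arrays stood above all others, by 1.18 ± 0.18 over WT (limma adjusted p = 0.014). That call was lost without WT replicate 1 (0.0583), DKO replicate 1 (0.078) or DKO replicate 2 (0.116).

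Id2 encodes an inhibitor of helix-loop-helix factors, for which a fat-promoting role has also been described in mouse cells. It read 7.69 and 7.99 in WT, 8.25 and 8.57 in Gadd45a-/-, 7.25 and 7.84 in Ing1-/-, and 8.93 and 9.02 in DKO. WT and Ing1-/- overlapped and DKO was highest. It was higher in DKO by 1.13 ± 0.21 (limma adjusted p = 0.03), lost without WT replicate 1 (0.128), DKO replicate 1 (0.142) or DKO replicate 2 (0.181). A second Id2 probe gave 1.07 ± 0.29 and was not called (0.10), and another was above background on no array. The call of the brightest probe was also lost with the authors' values (limma adjusted p = 0.0515) and with all probes tested (0.083).

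Klf2, a Krüppel-like factor that represses Pparg in mouse preadipocytes, was the fifth gene higher in DKO and is named after its values were seen. It read 9.44 and 9.40 in WT, 10.13 and 9.99 in Gadd45a-/-, 9.74 and 9.60 in Ing1-/-, and 9.97 and 10.12 in DKO. Gadd45a-/- and DKO overlapped, and WT was lowest. The DKO difference was 0.63 ± 0.12 (limma adjusted p = 0.031), lost in 6 of the 8 fits without 1 array (both WT, both Ing1-/- and both DKO arrays, adjusted p from 0.0523 to 0.221) and with median scaling (0.43, adjusted p = 0.417). In arrays labelled Gadd45a-/- its difference was 0.64 ± 0.12 (adjusted p = 0.056). Dlk1, the preadipocyte surface protein that restrains differentiation, differed by 0.81 in Gadd45a-/- (adjusted p = 0.06) and 0.49 in DKO (0.16) and was not called.

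**Figure D4:**
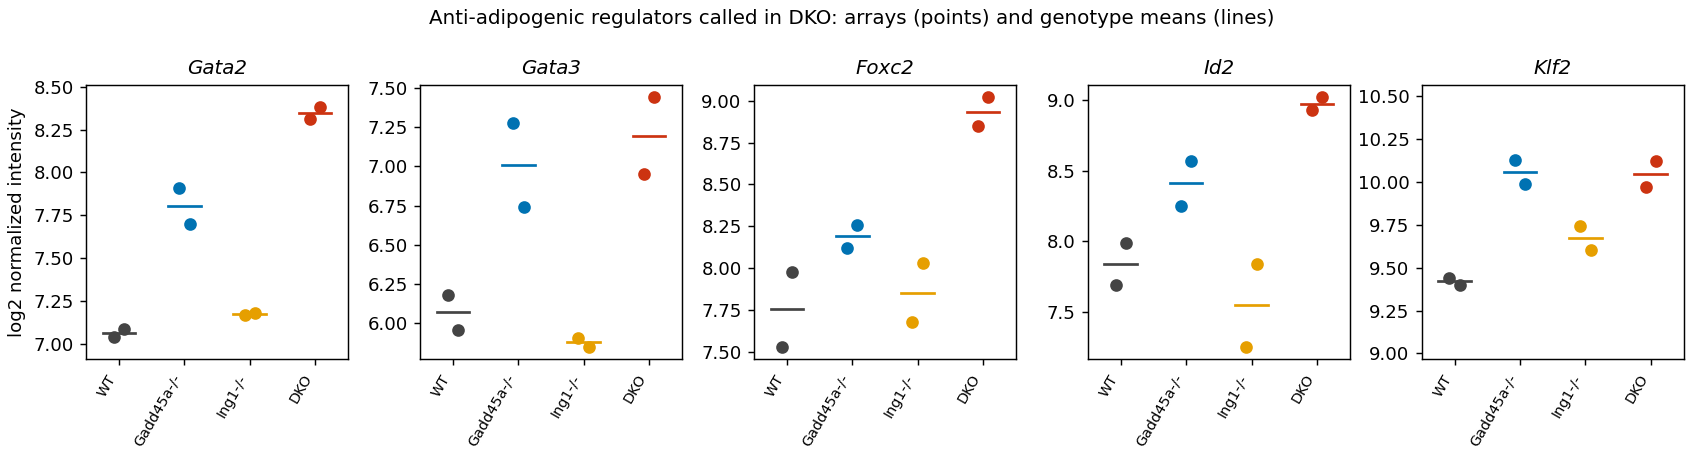
Log2 normalized intensity (vertical axis, a separate range for each gene) of 5 genes by genotype (horizontal axis). They are those called in DKO against WT from the list of restraining regulators, where Id2 also has a described fat-promoting role. Points are arrays and lines are genotype means. In Gata2, Foxc2 and Id2 both DKO arrays are highest, and in Gata3 and Klf2 DKO overlaps Gadd45a-/-.

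In arrays labelled Gadd45a-/- the same list had 1 gene higher of 16 (Gata2) and none lower, with a median of 0.25, beside 1.16% of all genes and 0.928% of all tested probes higher. The count was 0 with median scaling, and 4 with all tested probes of each gene averaged (8655 genes in the fit): Gata2, Klf2 (0.64, limma adjusted p = 0.026), Dlk1 (0.96, 0.0096) and Foxo1 (0.70, 0.045). In Ing1-/- none was called by limma, with 1 at an unadjusted p under 0.05 and a median of 0.07 (-0.13 with median scaling). In DKO against Ing1-/-, where 0.673% of all tested probes were higher, 4 of the 16 were higher: Gata2, Gata3 (1.31 ± 0.22, limma adjusted p = 0.039), Foxc2 (1.08 ± 0.18, 0.041) and Id2 (1.43 ± 0.21, 0.028).

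Regulators that promote fat formation had no call at their brightest probes. Of 28 such genes, all with a probe, 16 were tested, and none was called by limma in any comparison with WT, with 2 at an unadjusted p under 0.05 in Gadd45a-/-, 4 in Ing1-/- and 4 in DKO. Their median log2 differences were -0.12, -0.08 and -0.10. Among them Srebf1, a driver of lipid synthesis, differed by -0.75 ± 0.24 in DKO (limma adjusted p = 0.16), and Ebf2, a factor of brown fat precursors, by 0.75 ± 0.22 (0.13). With all tested probes of each gene averaged, Ebf2, read by 2 probes, was the 1 gene of the list called in each mutant, higher by 0.58 in Gadd45a-/- (limma adjusted p = 0.044), 0.87 in Ing1-/- (0.016) and 0.97 in DKO (0.0025). The medians with median scaling were -0.22, -0.28 and -0.29. Of the RXR genes only Rxrb was tested, and it differed by -0.20 ± 0.12 in DKO (limma adjusted p = 0.49). Rxra was above background on 2 arrays and Rxrg on none. Srebf1, Ebf2 and the RXR genes are named after their values were seen.

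Of 6 other C/EBP relatives and partners 5 had a probe and 3 were tested: Ddit3, Atf4 and Jdp2. None was called by limma against WT, with 2, 1 and 2 at an unadjusted p under 0.05 in Gadd45a-/-, Ing1-/- and DKO, and medians of -0.42, -0.13 and -0.32. Ddit3, which encodes CHOP, a C/EBP relative that can block C/EBPβ, read 10.33 and 10.48 in WT, 9.98 and 9.70 in Gadd45a-/-, 10.28 and 10.26 in Ing1-/-, and 9.94 and 9.75 in DKO. Gadd45a-/- and DKO lay below the other genotypes, at -0.56 ± 0.14 each (adjusted p = 0.14 and 0.08).

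Other genes of the mature fat cell were mostly at background, as Cebpa, Fabp4, Cd36 and Adipoq were. Of 39 genes 36 had a probe, 16 were tested, and 19 were above background on no array, Plin1, Lipe, Slc2a4 and Lep among them. In DKO 1 of the 16 was lower and none higher, with a median of -0.09. This was Mgll, the lipase that splits monoacylglycerols, at 8.76 and 8.83 in WT, 8.19 and 8.31 in Gadd45a-/-, 8.86 and 8.57 in Ing1-/-, and 8.08 and 7.99 in DKO. DKO was lowest, with a log2 difference from WT of -0.76 ± 0.13 (limma adjusted p = 0.022). Its other tested probes gave -0.84 ± 0.29 (0.20) and -0.60 ± 0.14 (0.064), and the call was lost without WT replicate 1 (0.0766), WT replicate 2 (0.0728), DKO replicate 1 (0.115) or DKO replicate 2 (0.168). With all tested probes of each gene averaged, 3 genes were lower: Mgll (-0.73), Scd1 (-0.47, limma adjusted p = 0.038) and Scd2 (-0.57, 0.036). None was called in Gadd45a-/- or Ing1-/-, with 3 and 5 at an unadjusted p under 0.05 and medians of -0.08 and -0.01.

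Fatty acid uptake genes, the company of Lpl and Cd36, had 16 of 18 genes with a probe and 14 tested. In DKO 1 was higher and none lower (median -0.02), and in the single knockouts none was called, with 3 at an unadjusted p under 0.05 in each and medians of -0.10 and 0.06. Fabp3, the fatty acid carrier of heart and muscle, read 8.18 and 7.96 in WT, 8.47 and 8.72 in Gadd45a-/-, 8.24 and 8.38 in Ing1-/-, and 8.82 and 9.12 in DKO. DKO was highest, by 0.90 ± 0.16 over WT (limma adjusted p = 0.022). That call was lost without WT replicate 1 (0.0505), WT replicate 2 (0.0772), DKO replicate 1 (0.0657) or DKO replicate 2 (0.166), and with median scaling (0.70, adjusted p = 0.113). With tested probes averaged, Vldlr, a lipoprotein receptor, was called lower (-0.64, adjusted p = 0.02).

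Genes of the acute-phase and cytokine response, of which several are known C/EBP targets, had 17 of 19 genes with a probe and 8 tested. Cxcl1, a neutrophil-attracting chemokine, read 9.01 and 9.30 in WT, 8.35 and 8.41 in Gadd45a-/-, 8.14 and 8.29 in Ing1-/-, and 7.73 and 7.83 in DKO. WT was highest and DKO lowest, with no overlap between them and the rest. It fell in all 3, by 0.78 in Gadd45a-/- (log2 scale, limma adjusted p = 0.042), 0.94 in Ing1-/- (0.041) and 1.38 in DKO (0.0022). The DKO call was kept in all 8 fits without 1 array. Both single-knockout calls were lost in all 8, with adjusted p from 0.0501 to 0.205 in Gadd45a-/- and from 0.0682 to 0.241 in Ing1-/-.

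Il1rn encodes the interleukin-1 receptor antagonist. It read 5.15 and 5.13 in WT, 7.62 and 7.04 in Gadd45a-/-, 5.23 and 5.23 in Ing1-/-, and 6.43 and 6.45 in DKO. It was above background on no WT array, so it was at least 2.64-fold higher in Gadd45a-/- (limma adjusted p = 0.002) and at least 1.42-fold higher in DKO (adjusted p = 0.0085). This probe was above background only in Gadd45a-/- and DKO. The other Il1rn probes were above background on no array, so the rise rests on 1 probe. The DKO call was lost without either DKO array (0.0688 and 0.0735). The other tested genes of the list were not called, and its medians were -0.09, -0.46 and -0.32 in Gadd45a-/-, Ing1-/- and DKO. Over the alternatives the medians ran from -0.32 to 0.036, from -0.62 to -0.15 and from -0.54 to 0.084, and the positive values came from testing more probes. The number lower in DKO ran from 1 to 3, and was 3 with tested probes averaged: Cxcl1, Ccl2 (-0.92, limma adjusted p = 0.031) and Mt1 (-0.60, 0.04).

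**Figure D5:**
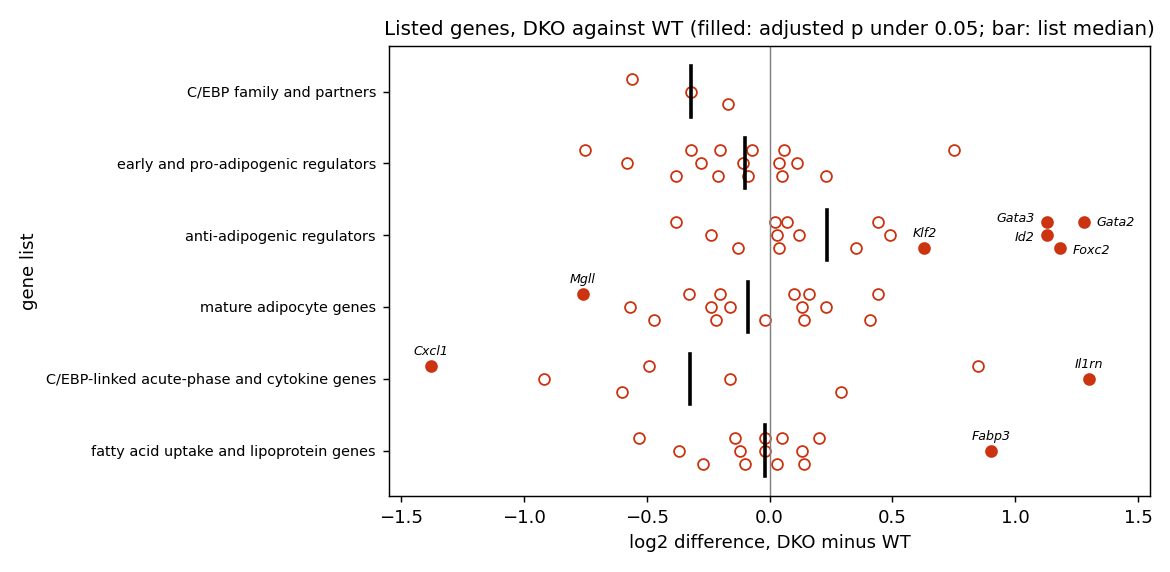
Log2 difference of DKO from WT (horizontal axis) for the tested genes of 6 lists (vertical axis). Points are genes, filled where the adjusted p was under 0.05, and bars are list medians. The filled points to the right include Gata2 at 1.28 and those to the left Cxcl1 at -1.38. For Il1rn, above background on no WT array, the point is the fitted difference.

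Markers of cell types were read beside these genes, since in bulk RNA fewer cells of a type and less RNA per cell cannot be told apart. All 14 fibroblast markers were tested and 13 were above background on all arrays. Their summed signal was 115000 to 116000 in WT, 99300 to 105000 in Gadd45a-/-, 108000 to 110000 in Ing1-/- and 94400 to 98300 in DKO (linear scale). The fibroblast and preadipocyte marker Pdgfra, a growth factor receptor that also marks fat cell precursors, read 11.06 and 11.26 in WT, 10.75 and 10.62 in Gadd45a-/-, 10.73 and 10.59 in Ing1-/-, and 10 and 9.9 in DKO. It was lowest in DKO and fell by 1.21 there on the log2 scale (SE 0.13, limma adjusted p = 0.003), a call kept in all 8 fits without 1 array. Col3a1 fell by 1.15 in Gadd45a-/- (adjusted p = 0.039), a call kept in 1 of those 8 fits, and its other tested probe gave -0.48 ± 0.27 (0.54).

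Of 9 fat-cell markers with a probe, none was above background on any array. Their summed signal was 247 to 249 in WT, 254 to 269 in Gadd45a-/-, 263 to 266 in Ing1-/- and 273 to 287 in DKO, all at background. Of 10 preadipocyte markers with a probe 5 were tested and 4, Cd24a, Dpp4, Pi16 and Zfp423, were above background on no array. Their sums were 8860 to 10000 in WT, 10900 to 13200 in Gadd45a-/-, 8720 to 10000 in Ing1-/- and 9560 to 9730 in DKO. These sums weigh the brightest probe most, that of Dlk1 (log2 mean 12.24 in WT and 13.05 in Gadd45a-/-). The median log2 difference of the 5 from WT was -0.31 in Gadd45a-/-, -0.09 in Ing1-/- and -0.32 in DKO. In DKO 1 of the 5, Pdgfra, was called lower, beside 2.20% of all genes.

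Macrophages can express Pparg, Il1rn and several cytokine genes, so their markers matter here. Of 15 with a probe 8 were tested, and 4, Adgre1, Tyrobp, Aif1 and Ptprc, were above background on no array. In Gadd45a-/- 6 of the 8 were higher, in Ing1-/- 1 (C1qb) and in DKO none by limma, with 1 there at an unadjusted p under 0.05. Of all genes 1.16% were higher in Gadd45a-/- and 0.231% in Ing1-/-. C1qc, Cd52, Cd14 and Mpeg1 passed the detection filter only through single knockouts, so the filter itself favours higher values there. The count in Gadd45a-/- was 1 without WT replicate 1 or either Gadd45a-/- array, 2 without WT replicate 2, 4 without Ing1-/- replicate 2, and 3 where either array of DKO was left out. In Ing1-/- it was 0 without WT replicate 1 or either Ing1-/- array and up to 3 under other settings. The summed signal was 1150 to 1190 in WT, 2110 to 2190 in Gadd45a-/-, 1670 to 1800 in Ing1-/- and 1120 to 1150 in DKO. In DKO, where Pparg was highest, the sum was not above that in WT, and any part of macrophages in the Pparg result was not tested. The sum was highest in Gadd45a-/-, where Il1rn was highest too, and its part in that result was not tested. Of 10 endothelial markers 3 were tested and 7 were above background on no array, with sums between 838 and 1010 in all genotypes. Emcn, above background on no WT array, read higher than WT in Ing1-/- and DKO, and Egfl7 and Ramp2 read lower. The median log2 difference of the 3 was -0.03 in Ing1-/- and -0.20 in DKO. Emcn among them was at least 2.21-fold higher in Ing1-/- (limma adjusted p = 0.025, called in 1 of the 8 fits without 1 array) and at least 2.43-fold higher in DKO (0.0041, called in all 8) than in WT.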

How the data were processed

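Per the file headers, the deposited non-normalized table gives linear mean bead intensity and, beside it, a detection p-value for every probe. The submitters' processing notes name GenomeStudio 2011.1 with no role. The authors also deposited a table of processed intensity (column medians from 8.856 to 8.884, 34.5% below 0), for which no method was found in the labels. It served as an alternative, on a log2 scale with values under 16 set to 16.

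Intensities were background-corrected, quantile normalized and put on a log2 scale with neqc of limma 3.58.1 in R 4.3.3, with an offset of 16, the control distribution being inferred from detection p-values. The offset understates changes of dim probes. Genotype means over all 8 arrays were estimated with lmFit, contrasts and eBayes (residual df 4, prior df 3.79), with Benjamini-Hochberg adjustment within each comparison. The fit was tested on simulated data. Where a probe was above background on no array of a genotype, its change is a bound: the brighter mean against the larger, array by array, of its own signal and the dimmest detected probe's signal. Of all probes 34885 had 1 gene symbol, 18 several and 10378 none. Of the named ones 34807 matched the RefSeq gene table by gene ID. Depth has no counterpart on arrays, and their number limits the precision.

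All members were named, with up to 4 of the most changed called genes of each list per comparison with WT, the 3 genes most like Pparg, and Gadd45a and Ing1. The members and lists were chosen with earlier results of these data known. Alternatives covered background correction, normalization, the authors' values, filters, probe choice, a replicate block, variance models, array weights, the genotypes fitted and each array left out.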

Additional observations from a re-analysis of the deposited data

Results flagged for a closer look

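Among the genes named here, only macrophage markers were called for the interaction. Of the 8 tested macrophage markers, 5 were called with a negative interaction, beside 0.162% of all genes. C1qc, Cd52, Cd14 and Mpeg1 passed the detection filter only through single knockouts, where they were brighter than in WT. The filter thus favours such a pattern, and the count is a description. C1qc was above background on 1 WT and 1 DKO array only, so its values there lay near the floor. The called markers named in this report follow. The interaction of C1qb, a subunit of complement C1q, was -3.23 ± 0.24 on the log2 scale (limma adjusted p = 0.0091): it was higher than in WT by 1.87 in Gadd45a-/- and 1.6 in Ing1-/- and differed by 0.24 in DKO (adjusted p = 0.58). The call was lost without Gadd45a-/- replicate 1 (-3.06, adjusted p = 0.0746) or DKO replicate 1 (-3.16, 0.0666). For C1qc, another subunit, the interaction was -2.72 ± 0.33 (limma adjusted p = 0.034), called in 2 of 8 fits without 1 array, those without a WT array. For Fcer1g, an Fc receptor chain, it was -1.62 ± 0.21 (limma adjusted p = 0.05, under the threshold before rounding), called in none of those 8 fits (adjusted p from 0.0871 to 0.254).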

How the results depend on the processing

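Calls depended on the number of arrays: with 2 per genotype, leaving 1 out ended many calls with little change in size, and the cause of each loss was not tested. Each value is the count of probes called, beside the reported count. For Gadd45a-/- against WT (198) it was 299 with no background correction, 87 with all probes tested, 335 with the trended, robust variance prior, 130 with array weights, 33 with only the 2 genotypes fitted, and 37 to 140 with 1 array left out. For Ing1-/- against WT (62) it was 117 with normexp at an offset of 50, 123 with no background correction, 118 with median scaling, 20 with all probes, 140 with the trended prior, 39 with array weights, 7 with only 2 genotypes, and 7 to 24 with 1 array left out. For DKO against WT (565) it was 317 with all probes, 265 with only 2 genotypes, and 140 to 498 with 1 array left out. For DKO against Gadd45a-/- (58) it was 92 with no background correction, 17 with all probes, 26 with a detection p under 0.05, 110 with the trended prior, 98 with array weights, 23 with only 2 genotypes, and 4 to 77 with 1 array left out. For DKO against Ing1-/- (165) it was 263 with no background correction, 56 with all probes, 280 with the trended prior, 275 with array weights, and 5 to 186 with 1 array left out. For the interaction (22) it was 37 with no background correction, 6 with all probes, 12 with detection on all 8 arrays, 11 with a detection p under 0.05, 10 with the replicate block, 40 with the trended prior, and 1 to 21 with 1 array left out.

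The median log2 differences of the tested probes were 0.004, 0.012 and 0.007 in Gadd45a-/-, Ing1-/- and DKO against WT. Median scaling moved them to -0.09, -0.181 and -0.162. The share of higher calls went from 69.7% to 48.0%, from 48.4% to 13.6% and from 48.7% to 25.8%, and for the interaction from 9.09% to 33.3%. It turned uncalled differences of Cebpb (DKO minus Ing1-/-, 0.012), Cebpd (DKO minus Gadd45a-/-, -0.046, and DKO minus Ing1-/-, 0.009) and Lpl (Gadd45a-/- minus WT, -0.033, and Ing1-/- minus WT, -0.11). Leaving out 1 array turned uncalled differences of Cebpb (DKO minus Ing1-/-, -0.069 to 0.021), Cebpd (DKO minus Ing1-/-, -0.14 to 0.11, and DKO minus Gadd45a-/-, -0.089 to 0.16) and Cebpg (interaction, -0.0088 to 0.079).

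Nothing in the labels ties same-numbered arrays together, and deviations of same-numbered arrays correlated between -0.092 and 0.276. With the replicate block 172, 47, 547, 49 and 138 probes were called in the comparisons in the order above, before the interaction. Signal near background limits Cebpa, Fabp4, Cd36 and Adipoq.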
